A study of Homo sapiens with 12 samples.

Results

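The interleukin 4 receptor gene IL4R and 9 further receptors for myeloid growth factors and cytokines were followed through a map of N6-methyladenosine (m6A), a methyl mark on messenger RNA. The cells were NOMO-1, an established human acute myeloid leukaemia line of monocytic type. They carried the guide sgMETTL16-1 or the guide sgMETTL16-2, both against the RNA methyltransferase gene METTL16, or the control guide sgNS. All 3 kinds of cells had been infected with lentivirus, selected with puromycin and grown without further treatment, and nothing in the labels says that a single clone was picked. Polyadenylated RNA was sequenced both untouched (input) and after pull-down by an antibody against m6A (immunoprecipitate, IP), in 2 libraries of each kind per guide, which makes 12 libraries. The members are the rows of the authors' deposited tables named IL4R, CSF2RA, CSF2RB, IL3RA, CSF3R, IL6R, IL10RA, CSF1R, FLT3 or KIT. The set was chosen by name around IL4R, and IL4R was selected on its calls in these same comparisons. The members make up 206 of 296568 windows over the 4 tables and 10 of 16417 genes.

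IL4R, CSF2RA, CSF2RB, IL3RA, CSF3R and IL6R belong to the type I cytokine receptors, which have no kinase of their own and signal through Janus kinases (JAK) and STAT transcription factors. IL10RA is a type II receptor that uses the same kinases, and CSF1R, FLT3 and KIT are receptor tyrosine kinases. Most m6A of messenger RNA is written by the METTL3-METTL14 complex, in long exons and near the ends of coding sequences. METTL16 is known for a small set of structured targets, among them the U6 small nuclear RNA and the MAT2A messenger RNA.

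Each of the 4 deposited tables sets 1 knockout guide against sgNS for 1 replicate number and lists windows of transcripts. Each window carries the ratio of IP to input signal, here its fold enrichment, and the log2 fold change of m6A between guide and sgNS. Positive values are read as more m6A in the knockout, the usual convention for these column names, which the tables themselves do not state, and all signs would flip under the other one. Windows whose difference had a false discovery rate (FDR) under 0.05 by the authors' test are named called windows. Those that passed the same limit for IP against input are named enriched. The tables hold no value per library, so depth is unknown, no window has a replicate error, and separate cultures behind the replicate numbers are not stated. They held 70002 to 79372 windows on 14872 to 15212 genes. All 10 monocytic marker genes looked up had windows in every table, among them CD14, CD33, LYZ and MPO. Of the lymphoid markers CD79A had windows and CD3E and MS4A1 had none, and none of 3 erythroid markers did.

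For the sequences, the stretches that RefSeq gives around gene starts (GRCh38.p14) were read where a member's window reached into them. Such stretches were found for 9 of the 10 members, and 20 windows of 6 genes reached into one. The letters GGAC, the most usual core of METTL3-METTL14 sites, were looked for on the transcribed strand, and lay inside windows of CSF3R, IL6R and IL4R. They are shown because the 5′ windows of CSF3R and IL6R were enriched, with IL4R set beside them, and GGAC is in capitals. The CSF3R stretch is chr1:36482878-36482905 on the minus strand, the IL6R stretch chr1:154405352-154405379 on the plus strand and the IL4R stretch chr16:27313981-27314008 on the plus strand.
CSF3R: gggagagaagctGGACtgcagctggttt
IL6R: cctgcgttgccaGGACcgtccgccgctc
IL4R: gcttgggcgcccGGACggcgaatggagc
The GGAC begins 20 to 22 bases from the start site on which the stretch is built, counting that site as 1. For IL4R and CSF3R this site lies inside the gene as annotated, downstream of its outermost 5′ end. In CSF3R it lay inside the 5′ window of all 4 tables, in IL6R inside that of sgMETTL16-1 replicate 1 alone, where the window starts further upstream. In IL4R it lay inside an unenriched window of both replicate 2 tables. Of all 35116 such stretches, 18.9% hold GGAC in the 50 bases from the start site on. The nonamer TACAGAGAA, the METTL16 element of U6 and MAT2A, was not in the parts of these member windows that were read, of at most 182 bases each. Of all stretches, 0.171% hold it over their whole length and 0.0313% in the 50 bases from the start site on. The bases of the IL4R 3′ windows described next were not analysed here.

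IL4R, the alpha chain that binds interleukin 4 and, with IL13RA1, interleukin 13, had higher m6A near its 3′ end with both guides in both replicates. The authors' deposited tables give a log2 fold change of 0.52 (FDR = 0.0257) for sgMETTL16-1 in replicate 1, at chromosome 16, 27363189 to 27364508 of GRCh38. In replicate 2 of that guide the window from 27363699 to 27364508 is at 0.70 (FDR = 0.000617) in the authors' deposited table. The windows of sgMETTL16-2 in the authors' deposited tables are at 0.62 (FDR = 0.00107) for 27363309 to 27364538 in replicate 1 and 0.53 (FDR = 0.00708) for 27363219 to 27364538 in replicate 2. All 4 values lie on the same side of 0 and within 0.52 to 0.70. IL4R was chosen for these calls, so they are a description and not a test. The share of all windows called higher was 0.0743% and 0.583% in the sgMETTL16-1 tables of replicates 1 and 2, and 0.875% and 0.586% in those of sgMETTL16-2. Tables of 1 replicate number may share their sgNS libraries, which the sources used here do not state, so the 4 calls may not be independent. The deposited p-values look one-sided: with a two-sided p the value of replicate 1 of sgMETTL16-1 had an FDR of 0.0669. With the median of a table's enriched windows subtracted as well, both replicate 2 calls were lost (FDR = 0.0565 and 0.401).

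**Figure D1:**
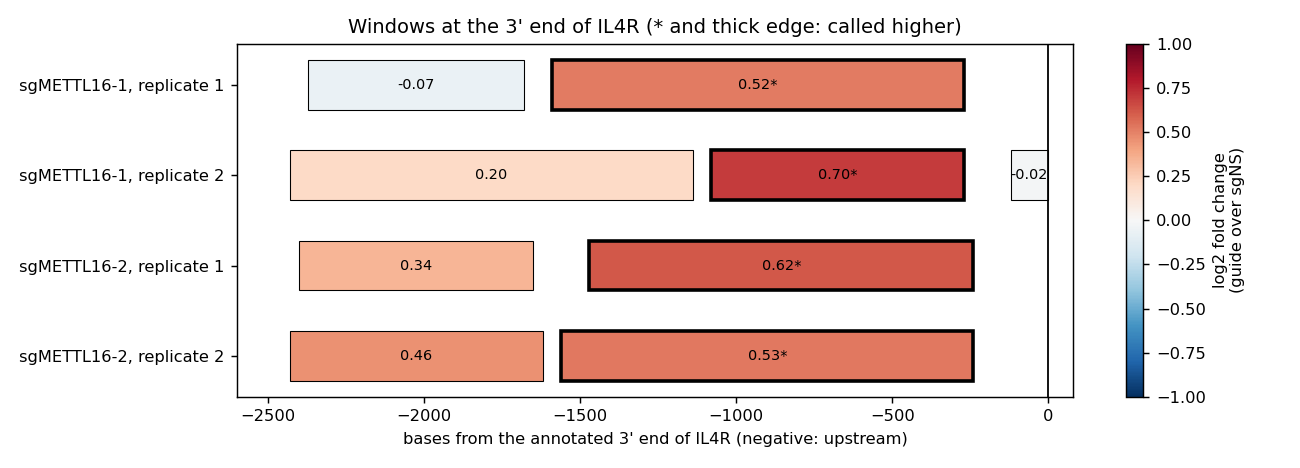
Windows of the last part of IL4R in the 4 deposited tables, as bars from their first to their last base (x axis, bases from the annotated 3′ end), coloured and labelled by the authors' log2 fold change of guide over sgNS. The long 3′ windows, at 0.52 to 0.70 and marked with a star, were called higher in every table, and the windows upstream of them, at -0.07 to 0.46, in none. A short unenriched window at the annotated 3′ end, listed in replicate 2 of sgMETTL16-1, was at -0.02 and not called.

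The windows are long single blocks of 810 to 1320 bases and stop 240 to 270 bases before the annotated 3′ end of the gene, which runs from 27313756 to 27364778. They were enriched for m6A in all 4 tables. Most windows called higher in a table were also enriched, so the enrichment is not independent of the calls that chose IL4R. With sgMETTL16-1 the fold enrichment in the authors' deposited tables was 2.32 and 3.07, and with sgMETTL16-2 it was 2.23 and 2.61. By the enrichment p-value, 3.55% to 18.8% of the enriched windows of a table were stronger. By the size of the change, 4.09% and 5.32% of enriched windows in the sgMETTL16-1 tables lay above the IL4R window, and 9.07% and 9.48% in those of sgMETTL16-2. Windows with larger increases were therefore common in each table. IL4R was picked for its calls over the 4 tables, and how many other windows were called in all 4 was not counted.

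A further enriched IL4R window lies just upstream, at 27362409 to 27363099 in replicate 1 of sgMETTL16-1, and was called in no table. With sgMETTL16-1 it was at -0.07 and 0.20 in the authors' deposited tables, and with sgMETTL16-2 at 0.34 and 0.46. The 3′ window was higher than this neighbour by 0.59 and 0.51 with sgMETTL16-1, and by 0.28 and 0.07 with sgMETTL16-2. Both windows lie in 1 transcript region and were set against the same input, so the gap within a table is a gap along the gene, but its error is unknown. The border between the windows also moved, since in replicate 2 of sgMETTL16-1 the upstream window ran on to 27363639. The other 9 IL4R windows, most of them nearer the 5′ end, were not enriched, and in the authors' deposited tables they ran from -0.58 to 0.62 with 6 below 0 and 3 above. No window of another gene overlapped any member window in its table.

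Over all 10 genes 6 windows were called, all higher and all enriched, and 0 were called lower. IL4R had 4 of these calls, IL6R 1 and CSF3R 1. At an unadjusted p under 0.05 in the authors' deposited tables, 25 member windows passed, 18 higher and 7 lower. The share of all windows called lower was 0.281% and 0.167% in the tables of sgMETTL16-1 and 0.965% and 0.149% in those of sgMETTL16-2, and of enriched windows alone 2.79%, 0.766%, 4.38% and 0.676% in the same order. With 50 to 53 member windows per table, the absence of lower calls is near this background and is not a result about these genes.

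**Figure D2:**
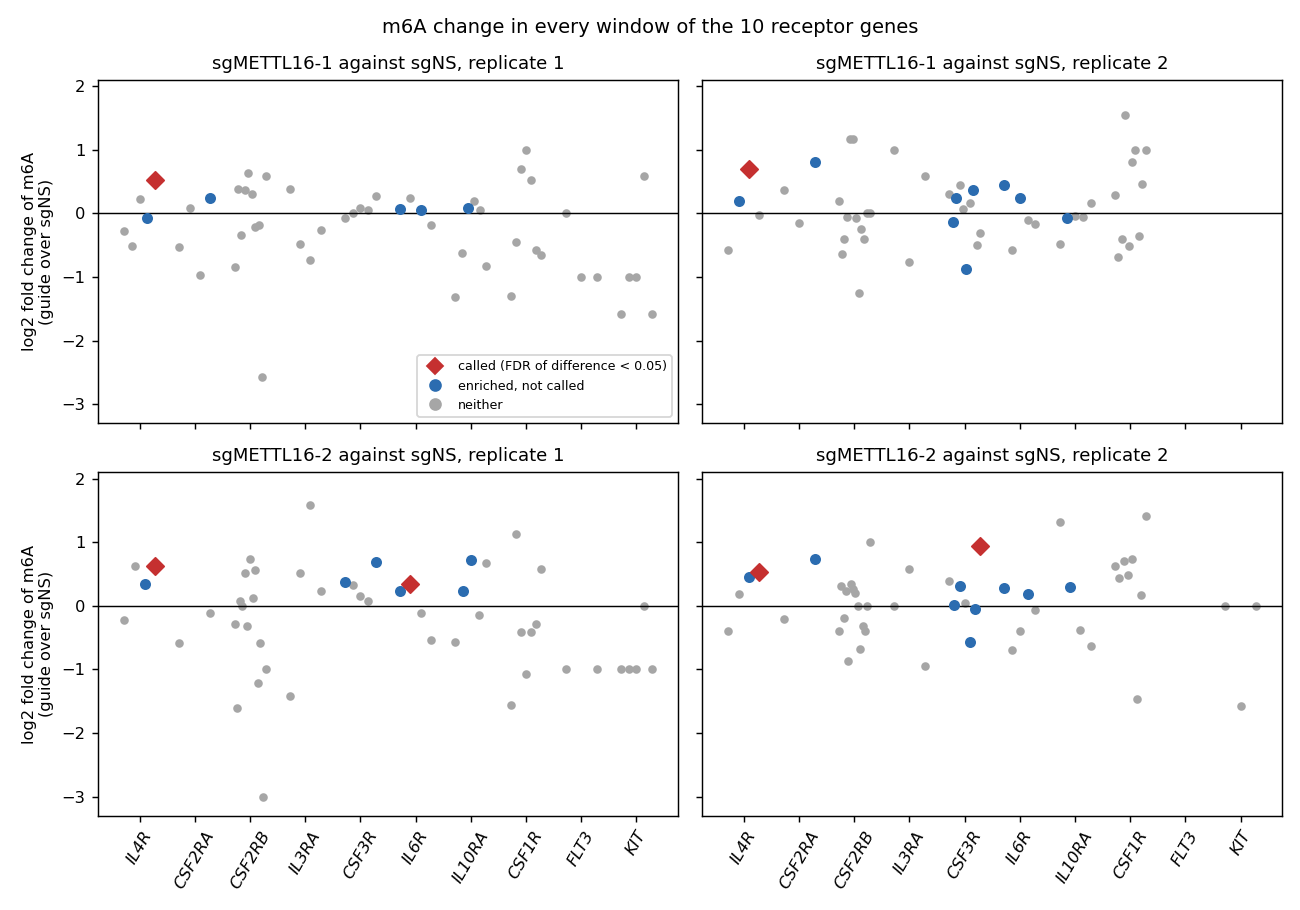
The authors' log2 fold change of guide over sgNS (y axis) for each window of the 10 genes (x axis, windows of a gene from left to right by position on the chromosome), with 1 panel per deposited table. Red diamonds are called windows, blue points enriched windows without a call and grey points the rest; the called windows are those of IL4R in every panel, IL6R in replicate 1 of sgMETTL16-2 and CSF3R in replicate 2 of sgMETTL16-2, and values far from 0, down to -3.00, are grey.

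The GM-CSF receptor is made of CSF2RA, which binds the ligand, and CSF2RB, the signalling chain shared with the receptors for interleukin 3 and interleukin 5. CSF2RA had a window of 503 bases on chromosome X (1309433 to 1309935) with 0.24 and 0.81 for sgMETTL16-1 in the authors' deposited tables. For sgMETTL16-2 the same site, 474 bases long in replicate 1, had -0.12 and 0.73 in the authors' deposited tables. Both replicate 2 values were the higher ones and neither was called, with FDRs of 0.0631 and 0.129 in the authors' deposited tables. It was enriched in 3 tables and not in replicate 1 of sgMETTL16-2, where the value was below 0. CSF2RA and IL3RA lie in the pseudoautosomal region, and the tables list them on chromosome X and have 0 rows for them on Y.

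CSF2RB had the most windows, 49 over the 4 tables, and not a single enriched one. Its smallest enrichment FDR was 0.113 in the authors' deposited tables. There 27 of its windows lay below 0, 19 above and 3 at 0, and the smallest FDR of a difference was 0.212. The largest values, -3.00 in replicate 1 of sgMETTL16-2 and -2.58 in replicate 1 of sgMETTL16-1, came in the authors' deposited tables from overlapping windows near 36940108 on chromosome 22 with an enrichment FDR of 1. IL3RA, the interleukin 3 receptor alpha chain known as CD123 on leukaemia stem cells, had 14 windows, also with no enriched one. They ran from -1.42 to 1.58 in the authors' deposited tables, 6 below 0, 7 above and 1 at 0. With no enriched window, a change in the m6A of these 2 subunits was not detectable here.

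CSF3R, the receptor for the granulocyte growth factor G-CSF, was called higher at its 5′ end with sgMETTL16-2 in replicate 2. There the authors' deposited table gives 0.94 (FDR = 0.0049) for a window of 3 blocks from 36479482 to 36482955 on chromosome 1, with a fold enrichment of 1.65. The GGAC printed above for CSF3R lies in this window. In replicate 1 of sgMETTL16-2 the matched window was at 0.69 in the authors' deposited table (FDR = 0.171, not called). With sgMETTL16-1 the matched windows were at 0.27 and -0.31 in the authors' deposited tables, neither enriched nor called. The call was lost when the median of enriched windows was subtracted, with a two-sided p (FDR = 0.125), while the value itself was 0.80 after subtraction. The values of sgMETTL16-1 come from unenriched windows of 240 and 120 bases, and a difference between the guides was not tested.

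Along the rest of CSF3R the values went both ways. An internal window of 120 bases (36472106 to 36472323), enriched in both replicate 2 tables, had -0.87 for sgMETTL16-1 and -0.57 for sgMETTL16-2 in the authors' deposited tables, and was not called (FDR = 0.185 and 0.57). A window nearer the 3′ end, 36466491 to 36467282 in replicate 2 of sgMETTL16-1, had -0.14 there in the authors' deposited table. For sgMETTL16-2 the matched windows had 0.33 in replicate 1, where the window was not enriched, and 0.02 in replicate 2 in the authors' deposited tables. In all, CSF3R had 11 enriched windows, 7 above 0 and 4 below, some of them the same site in different tables. Of all enriched windows, 44% and 67.2% lay above 0 in the sgMETTL16-1 tables and 63.3% and 67.4% in those of sgMETTL16-2. No enriched CSF3R window was in the replicate 1 table of sgMETTL16-1.

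IL6R, which binds interleukin 6 and signals through IL6ST, carried the m6A peak with the smallest enrichment FDR of the set, though not with the largest fold enrichment. Its main window, 154465239 to 154465926 on chromosome 1 in replicate 1 of sgMETTL16-2, had an enrichment FDR of 5.01e-55 and a fold enrichment of 2.58 in the authors' deposited table. It lies 3434 to 3524 bases before the annotated 3′ end. With sgMETTL16-1 this window was at 0.05 and 0.24 in the authors' deposited tables, and with sgMETTL16-2 at 0.35 and 0.18. The value of 0.35 was called (FDR = 0.011), while the other 3 had FDRs of 0.655, 0.22 and 0.461 in the authors' deposited tables. The call was lost when the median of enriched windows was subtracted, with a two-sided p (FDR = 0.545), which put the value at 0.22. All 4 lay above 0 and each was smaller than that of the IL4R 3′ window in the same table.

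The 5′ window of IL6R, 154405342 to 154405611 in replicate 1 of sgMETTL16-1, was enriched in all 4 tables and called in none. With sgMETTL16-1 it stood at 0.07 and 0.44 in the authors' deposited tables, and with sgMETTL16-2 at 0.23 and 0.28. IL6R thus had 8 enriched windows, all above 0, between 0.05 and 0.44. They are 2 sites listed once in each of the 4 tables, so they are repeats and not 8 separate observations. Of its 10 unenriched windows 9 lay below 0 and 1 above, from -0.69 to 0.24 in the authors' deposited tables.

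IL10RA, the ligand-binding chain of the receptor for the anti-inflammatory interleukin 10, had its enriched windows in the last part of the gene and no call. Their borders differed between tables, so no IL10RA window was matched in all 4. In replicate 2 of sgMETTL16-2 a window of 1619 bases (117995663 to 118000285 on chromosome 11) had a fold enrichment of 3.11 and a log2 fold change of 0.30 in the authors' deposited table (FDR = 0.644). In replicate 1 of that guide the matched window of 810 bases had 0.23 in the authors' deposited table (FDR = 0.659), and a further enriched window had 0.72 (FDR = 0.526). With sgMETTL16-1 the enriched windows were at 0.08 in replicate 1 and -0.08 in replicate 2 in the authors' deposited tables. Over all tables, 4 of 5 enriched windows lay above 0, some of them the same site in different tables. The smallest FDR of a difference in IL10RA was 0.526 in the authors' deposited tables.

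**Figure D3:**
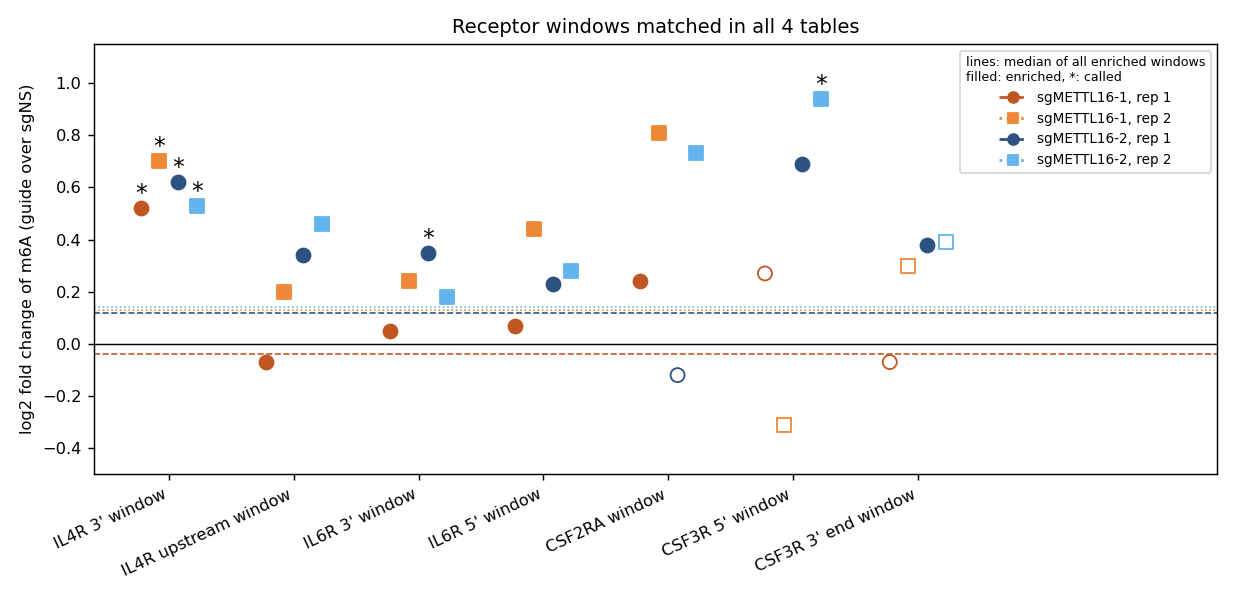
The authors' log2 fold change of guide over sgNS (y axis) at the receptor windows that were matched in all 4 deposited tables (x axis), with 1 symbol per table, filled where the window was enriched and starred where it was called. Dashed and dotted lines are the medians of all enriched windows, from -0.04 to 0.14; the IL4R 3′ window lies above all of them in every table at 0.52 to 0.70, and the CSF3R 5′ window spreads from -0.31 to 0.94.

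The receptor tyrosine kinases CSF1R, FLT3 and KIT had no enriched window in any table. CSF1R, the receptor of the macrophage growth factor M-CSF, had 32 windows, 14 below 0 and 18 above, with a smallest enrichment FDR of 0.366 and values from -1.56 to 1.55 in the authors' deposited tables. FLT3, a receptor of early progenitors that is often mutated in this leukaemia, had 5 windows, all in the replicate 1 tables, and 4 of them had a log2 fold change of -1 in the authors' deposited tables. KIT, the stem cell factor receptor, had 13 windows in 3 tables, of which 9 lay below 0. The same enrichment p-value, fold enrichment, log2 fold change and p-value of the difference recur together in 42 to 2667 other windows of the same table for KIT, and in 588 to 1930 for FLT3. The values are thus not particular to KIT or FLT3 and are not read as lower m6A.

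Of the 10 genes 5, IL4R, CSF2RA, CSF3R, IL6R and IL10RA, had an enriched window in at least 1 table, and 4 or 5 in any 1 table. Of all genes listed, 30.4% to 35.9% had one. Of the members' windows 11.3% and 19.2% were enriched in the sgMETTL16-1 tables and 15.7% and 22% in those of sgMETTL16-2, against 8.1%, 11.9%, 10.2% and 12.3% of all windows in the same order. The 35 enriched member windows had medians, in log2 fold change, of 0.08 and 0.24 with sgMETTL16-1 and 0.36 and 0.30 with sgMETTL16-2, against -0.04, 0.13, 0.12 and 0.14 for all enriched windows. Without IL4R the members' medians were 0.08, 0.24, 0.36 and 0.28. The members' medians thus lay above those of all enriched windows in each table with IL4R and without it, but the genes were chosen with results known and the offset is a description.

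Among enriched windows alone, called higher were 1 of 6 and 1 of 10 enriched member windows in the tables of sgMETTL16-1 and 2 of 8 and 2 of 11 in those of sgMETTL16-2. Of all enriched windows 0.809%, 4.64%, 7.38% and 4.54% were called higher in the same order. Without IL4R the count was 0 of 4, 0 of 8, 1 of 6 and 1 of 9.

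Downstream of these receptors, a list of 36 signalling genes (JAK and STAT members, SOCS and PIAS inhibitors, adaptors and phosphatases) had 4 lower and 5 higher calls over the 4 tables. With the median of enriched windows subtracted and a two-sided p, the split was 6 lower and 1 higher. The list had 271 and 242 windows in the sgMETTL16-1 tables and 238 and 248 in those of sgMETTL16-2. Of all windows, 0.281%, 0.167%, 0.965% and 0.149% were called lower in the same order, and 0.0743%, 0.583%, 0.875% and 0.586% higher. Set against these shares, the total of deposited calls is near the background and is not a result about these genes. No gene of the list was called the same way in replicates 1 and 2 of either guide. The genes named here were picked after their values were seen. STAT6, the transcription factor that interleukin 4 activates, was called higher in replicate 1 of sgMETTL16-2 at 0.53 (FDR = 0.00155) in the authors' deposited table (57096033 to 57096690 on chromosome 12). Its matched windows had 0.10 and 0.30 for sgMETTL16-1 and 0.18 in replicate 2 of sgMETTL16-2 in the authors' deposited tables, none of them called. IRS2, an adaptor of the interleukin 4 and insulin receptors, had 2 higher windows in replicate 1 of sgMETTL16-2, at 0.78 and 1.28 in the authors' deposited table (FDR = 0.00316 and 3.39e-08). The first had a match in replicate 1 of sgMETTL16-1 at 0.26 in the authors' deposited table (FDR = 0.655). The phosphatase gene INPP5D (0.37) and the STAT inhibitor gene PIAS4 (1.22, not enriched) were the other higher calls, both in replicate 1 of sgMETTL16-2 in the authors' deposited table. Among the lower calls were those of the kinase gene TYK2, at -1.25 for sgMETTL16-1 and -1.22 for sgMETTL16-2 in different unenriched windows of the replicate 2 tables, and that of the kinase gene LYN, at -0.66 in replicate 1 of sgMETTL16-2, in the authors' deposited tables.

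A list of 35 other receptor genes had 2 lower and 5 higher calls over the 4 tables. It had 158 and 126 windows in the sgMETTL16-1 tables and 149 and 127 in those of sgMETTL16-2. Set against the shares of all windows called lower and higher, given with the signalling list, this total is also near the background. IL17RA, the interleukin 17 receptor, was called in both tables of sgMETTL16-2 and had 3 of the 5 higher calls, at 17108417 to 17109884 on chromosome 22 in the replicate 2 tables. With sgMETTL16-1 it was at 0.19 and 0.63 in the authors' deposited tables and with sgMETTL16-2 at 0.55 and 0.52, with FDRs of 0.655, 0.00776, 0.0339 and 0.049. Each of these values is lower than that of the IL4R 3′ window in the same table. The rest were single calls, chosen for mention once their values were known. The tumour necrosis factor receptors TNFRSF1A (0.43, replicate 1) and TNFRSF1B (0.48, replicate 2) were called higher with sgMETTL16-2 in the authors' deposited tables. The same TNFRSF1A window was at -0.10 in replicate 2 of sgMETTL16-1 and -0.07 in replicate 2 of sgMETTL16-2 in the authors' deposited tables, and not called. The chemokine receptor CXCR4 was called lower with sgMETTL16-1 in replicate 1 (-1.22) and IFNGR1 with sgMETTL16-2 in replicate 1 (-0.82) in the authors' deposited tables. IL13RA1 and IL2RG, the partner chains of IL4R, had no call.

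The windows most like the IL4R 3′ window were sought among 8756 windows matched in all 4 tables, of which 654 were called in at least 1 table. Likeness was the root mean square difference of the 4 log2 fold changes. FAM20C, a secretory pathway kinase gene, was nearest with 0.57 and 0.65 for sgMETTL16-1 and 0.76 and 0.48 for sgMETTL16-2 in the authors' deposited tables, a difference of 0.0838. SCO2, a cytochrome c oxidase assembly gene, and POU2F2, the gene of the transcription factor OCT2, followed at 0.118 each. FAM83D and JARID2, a Polycomb accessory gene, were both at 0.134. Each of these 5 windows was called in 1 of the 4 tables, and those of FAM83D and JARID2 were enriched in 3 tables. IL4R was called in 4, but it was chosen for its calls, so this contrast is not a result.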

How the data were processed

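Transcript windows with the authors' own tests were deposited in 4 tables. STAR and GRCh38 are named in the submitters' processing notes, and the sources used here name neither peak caller nor annotation. Used were the authors' deposited log2 fold change, the deposited log10 of its p-value and FDR, the deposited enrichment scores (log10 values for IP against input) and the deposited fold enrichment, a ratio. Among strongly enriched windows no deposited p of a difference passed 0.504 to 0.514, so these p-values look one-sided. Depth is unknown.

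Windows of 2 tables were matched 1 to 1 by gene, strand and at least 0.5 of the bases of each. Matched windows among the members start from the most enriched window, and the likeness search from replicate 1 of sgMETTL16-1. Deposited starts count from 0 and are given from 1. RefSeq's gene table for GRCh38.p14 held all 10 members. Members, gene lists and tests were chosen with earlier results of these data known. By rule, all members, list genes called in both tables of a guide and the 5 genes nearest IL4R were named; other list genes were picked after their values were seen. Some list genes are not reported here. The matching and two-sided tests were checked on simulated data. Python 3.11.15, pandas 2.3.3, NumPy 2.4.6, SciPy 1.17.1 and matplotlib 3.10.9 were used.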

Additional observations from a re-analysis of the deposited data

How the results depend on the processing

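Of 78 recomputed counts, 47 stayed within 1.5 times the count given. Among them are the 0 lower member calls of both guides. Most alternatives only narrow the calls, so a count of 0 could not rise under them and says nothing about robustness. Subtracting the median of enriched windows could add calls, and the lower member calls stayed at 0 with both guides. When the median of a table's enriched windows was subtracted, with a two-sided p, the IL4R 3′ window was called in 2 tables in place of 4. It kept the calls of both replicate 1 tables (FDR = 0.0337 and 0.0433) and missed those of replicate 2 (FDR = 0.0565 for sgMETTL16-1 and 0.401 for sgMETTL16-2), with values of 0.39 to 0.57. Subtraction left 1 higher member call with each guide, 6 lower and 1 higher signalling calls and 4 calls in other receptors. With an FDR under 0.01 there remained 1 higher member call with sgMETTL16-1, 1 lower and 3 higher signalling calls, and 2 calls in other receptors. A two-sided p alone gave 1 higher member call with sgMETTL16-1, since IL4R in replicate 1 had an FDR of 0.0669, 2 lower and 3 higher signalling calls, and 3 in other receptors. A fold enrichment of at least 2 gave 18 enriched member windows in place of 35, 0 lower and 2 higher signalling calls, and 4 in other receptors. Enriched windows alone gave 1 lower signalling call.

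Leaving out replicate 1 or 2 counts the same deposited calls over fewer tables, so no count could rise and robustness was not tested. With either left out, 2 tables had the IL4R call, which the 4 calls fixed in advance. Higher member calls were then 1 and 1 with sgMETTL16-1 and 2 and 2 with sgMETTL16-2. Enriched member windows were 21 and 14. Lower signalling calls were 2 and 2, higher ones 0 and 5, and calls in other receptors 3 and 4. With an overlap of 0.8 the IL4R window was called in 3 tables, since the shorter one of sgMETTL16-1 replicate 2 was not matched. No paired analysis was possible because the tables hold no value per library. The causes were not tested.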
